A study of Homo sapiens with 3 samples.

Results

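MS4A3, MS4A4A, MS4A6A and MS4A7 are the 4 genes of the MS4A family that reached 1 FPKM in OCI-AML2 R50 cells, a form of the established acute myeloid leukaemia line OCI-AML2. They were picked by symbol from 25247 named genes, each stood in 1 row of the tables, and their FPKM values after romidepsin and in the control were known when they were chosen. FPKM counts sequenced fragments per kilobase of gene and per unit of library size. Romidepsin inhibits class I histone deacetylases, the enzymes that take acetyl groups off histones.

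The cells were compared in 2 romidepsin libraries, taken at 18 h, and 1 control library. Cells of both groups grew in MEMα medium with 15% FBS and 50 µM Ara-C (cytarabine), so the control also carried the nucleoside drug. No label gives the romidepsin dose or says whether its libraries came from separate cultures, so p-values reflect the spread of these libraries alone, and that spread may be technical. All libraries came from 1 cell line.

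MS4A proteins pass through the membrane several times, and the best known of them are MS4A1, the B cell antigen CD20, and MS4A2, the beta chain of the high-affinity IgE receptor of mast cells and basophils. MS4A3, also called HTm4, marks granulocyte-monocyte progenitors, binds the CDK2 phosphatase encoded by CDKN3, and in human chronic myeloid leukaemia cells promotes the uptake of the common beta chain of cytokine receptors from the cell surface. MS4A4A is a surface protein of alternatively activated macrophages that associates with the beta-glucan receptor Dectin-1, and MS4A6A and MS4A7 are transcribed mainly in monocytes and macrophages.

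The 4 genes lie close together on chromosome 11 but not all on the same strand, and the bases before their start sites are shown because the genes took different directions after romidepsin. In RefSeq's order of protein-coding genes the stretch reads MS4A3, MS4A2, MS4A6A, MS4A4E, MS4A4A, MS4A6E and MS4A7. MS4A6A and MS4A4E are on the minus strand and the others on the plus strand. Each sequence below gives the 250 bases before the outermost RefSeq start site (GRCh38.p14, a later build than the hg19 named for these data), 5′ to 3′ on the gene's own strand. Capitals mark matches, on either strand, to any of 5 searched motifs. The ETS and PU.1 core was searched as GAGGAA, and the C/EBP motif as TTGCNNAA. The GATA motif was AGATAA, the E-box was CACGTG, and the TATA box was the run TATAAA. No matches of different motifs overlapped in these windows.
MS4A3, chr11:60056415-60056664, plus strand: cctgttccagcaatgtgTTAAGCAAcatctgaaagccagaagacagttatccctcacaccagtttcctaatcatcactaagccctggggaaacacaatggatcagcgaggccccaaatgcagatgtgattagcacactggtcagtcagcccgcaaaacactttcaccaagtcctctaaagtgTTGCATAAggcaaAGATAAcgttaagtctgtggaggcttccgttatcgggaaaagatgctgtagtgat
MS4A4A, chr11:60280416-60280665, plus strand: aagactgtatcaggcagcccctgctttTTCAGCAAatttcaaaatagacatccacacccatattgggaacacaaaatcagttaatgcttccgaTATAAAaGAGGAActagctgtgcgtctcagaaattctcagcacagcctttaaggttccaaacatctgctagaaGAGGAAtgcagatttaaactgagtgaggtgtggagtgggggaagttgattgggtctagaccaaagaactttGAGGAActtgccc
MS4A6A, chr11:60184667-60184916, minus strand: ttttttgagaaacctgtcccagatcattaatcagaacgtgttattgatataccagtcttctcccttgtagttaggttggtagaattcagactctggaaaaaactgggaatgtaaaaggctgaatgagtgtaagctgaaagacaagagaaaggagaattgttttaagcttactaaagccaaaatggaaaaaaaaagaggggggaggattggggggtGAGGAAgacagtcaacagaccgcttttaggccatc
MS4A7, chr11:60378282-60378531, plus strand: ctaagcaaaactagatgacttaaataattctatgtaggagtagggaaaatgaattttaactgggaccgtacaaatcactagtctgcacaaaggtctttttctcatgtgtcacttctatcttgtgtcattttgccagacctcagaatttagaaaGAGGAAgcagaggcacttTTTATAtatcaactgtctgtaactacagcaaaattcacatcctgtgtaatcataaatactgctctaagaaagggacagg

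The MS4A3 window held 2 C/EBP matches, which begin at -233 and -68 from the start site, and 1 GATA match that begins at -55, and it held no GAGGAA. Among all 35116 RefSeq windows of this length, 9.05% held a C/EBP match, 9.17% a GATA match and 23.6% a GAGGAA match. The share of windows with more than 1 match was not counted, so nothing is read from repeated matches. MS4A4A had 3 GAGGAA matches, beginning at -150, -84 and -13, with 1 C/EBP match at -223 and 1 TATA match at -157. The TATA letters were present in 10.7% of all windows. MS4A6A had 1 GAGGAA match at -35 and no other match, and MS4A7 had 1 GAGGAA match at -97 and 1 TATA match at -79. No E-box was found in these 4 windows, against 6.34% of all windows. RefSeq lists 3 further start sites for MS4A6A, whose windows held other matches: 2 TATA matches, 1 GAGGAA with 1 E-box, and 1 C/EBP match. The 4 outermost windows had 36.4% to 46.4% G and C, and the 3 further MS4A6A windows 27.6% to 43.6%. The median over all windows was 58.0%. A match is a run of letters and not a shown binding site, and which start site the cells used was not measured. Part of the MS4A4A window was a near copy of sequence around the start site of its neighbour MS4A4E. Longer windows of 300 bases, which run past the start site, were compared for this. At the best ungapped offset, 129 bases, they overlapped over 171 bases, of which 93.0% were identical. The MS4A4A bases nearest its start site lay outside that overlap.

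**Figure D1:**
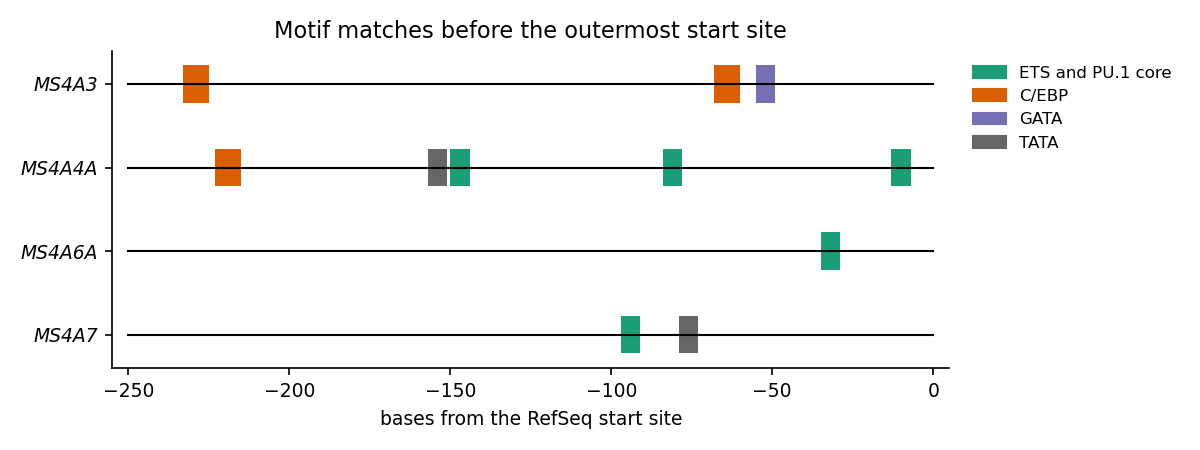
Motif matches in the 250 bases before the outermost RefSeq start site of each gene. The x axis is the distance from the start site in bases, and coloured boxes are matches on either strand. C/EBP letters appear before MS4A3 and MS4A4A, and GAGGAA before MS4A4A, MS4A6A and MS4A7 but not MS4A3.

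MS4A3 was the most abundant of the 4 genes in every library. It stood at 127 and 127 FPKM in the romidepsin libraries, against 426 FPKM in the control. Both romidepsin libraries thus lay far under the control, with a mean of 127 ± 0.129 FPKM (SD, n = 2), a 3.36-fold lower level. On the log2(FPKM + 1) scale used for all fold changes here, which understates changes of low genes, the difference was -1.74. As in any bulk sample, fewer cells that transcribe a gene and less RNA per cell cannot be told apart.

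MS4A6A, which stood at 6.14 and 5.97 FPKM after romidepsin against 33.9 FPKM in the control, was the furthest below its control level. The romidepsin mean was 6.06 ± 0.119 FPKM (SD, n = 2), 5.60-fold lower, and the log2 differences were -2.29 and -2.33 in the 2 libraries. Its mean log2 difference of -2.31 was the lowest of all 11708 tested genes, those with at least 1 FPKM in 1 library or more. MS4A3 had the 24th lowest. Genes with a low control level cannot fall that far on the log2(FPKM + 1) scale, so not every tested gene could rank lower.

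MS4A7 was lower after romidepsin by a smaller margin, at 17.4 and 18.7 FPKM against 25.2 FPKM in the control. The romidepsin mean of 18.0 ± 0.883 FPKM (SD, n = 2) was 1.40-fold lower, with log2 differences of -0.51 and -0.42. The control lay above both romidepsin libraries. The mean log2 difference of MS4A7, -0.46, was only the 2418th lowest of all tested genes and shrank to -0.23 with libraries scaled to the same sum.

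MS4A4A went the other way. It stood at 6.80 and 7.24 FPKM after romidepsin, against 1.56 FPKM in the control. Its romidepsin mean of 7.02 ± 0.311 FPKM (SD, n = 2) was 4.50-fold higher, with log2 differences of 1.61 and 1.69, and the mean difference of 1.65 was the 308th highest of all tested genes. For each of the 4 genes both romidepsin libraries lay on the same side of the control. The share of all tested genes that did so was not counted, so nothing is read from this.

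**Figure D2:**
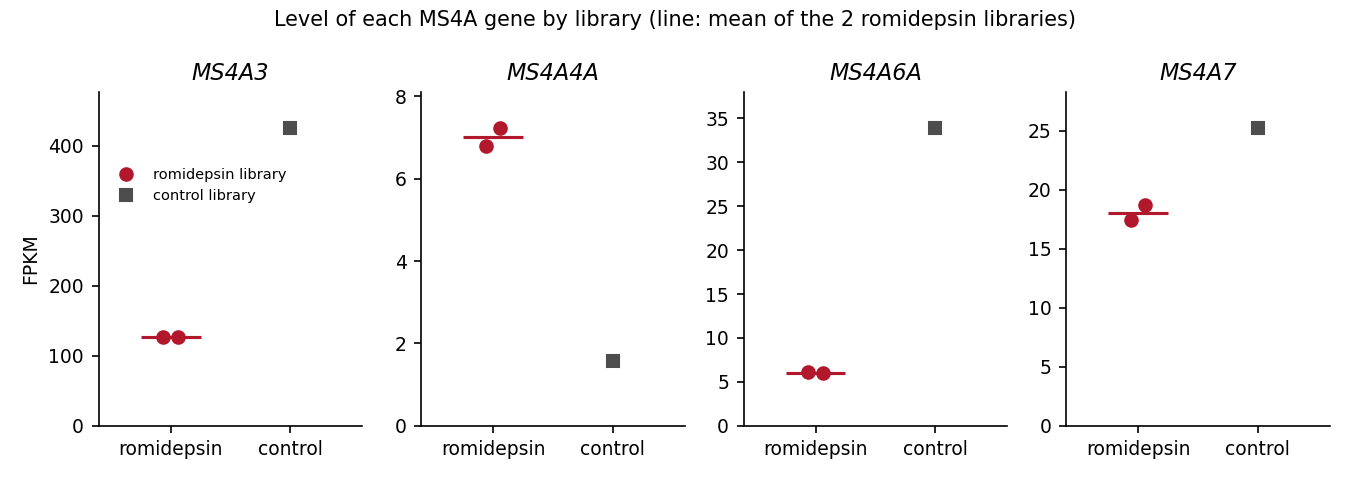
FPKM (y axis, linear, from 0, a scale of its own in each panel) of the 4 genes in the romidepsin libraries (circles, with a line at their mean) and the control library (square). MS4A3, MS4A6A and MS4A7 are lower after romidepsin and MS4A4A is higher, and the paired circles lie close together in each panel.

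The difference was 2-fold or more in each romidepsin library for 3 of the 4 genes, MS4A4A higher and MS4A3 and MS4A6A lower. Over all tested genes 10.5% met that rule, 7.43% higher and 3.08% lower. The genes were chosen with this contrast known, so no test is given for them and nothing is read from the count.

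Genes of similar abundance are set beside these differences. The members were chosen with the differences known, so this is a description only. The genes were matched on the single control value that also enters each difference, so the medians below can carry error of that value. Among the 155 tested genes whose control level was within 1.5-fold of that of MS4A3 (MS4A3 included), none had a lower log2 difference, and their median was -0.38. MS4A6A had the lowest of all tested genes, so none of the 1978 genes around it could have a lower one (median -0.22). Of these genes 5.66% met the 2-fold rule as lower. Around MS4A7, 576 of 2297 genes had a lower log2 difference (median -0.16). Around MS4A4A, 53 of 1034 genes had a higher one (median 0.21), and 15% of them met it as higher.

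The make-up of the family changed with the levels. The summed level of the 4 genes was 157 and 159 FPKM after romidepsin, against 487 FPKM in the control. MS4A3 made up 80.7% and 79.9% of that sum in the romidepsin libraries, against 87.5% in the control. MS4A7 held 11.1% and 11.8%, against 5.19% in the control. MS4A4A held 4.32% and 4.56%, against 0.321%, and MS4A6A held 3.91% and 3.77%, against 6.98%.

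**Figure D3:**
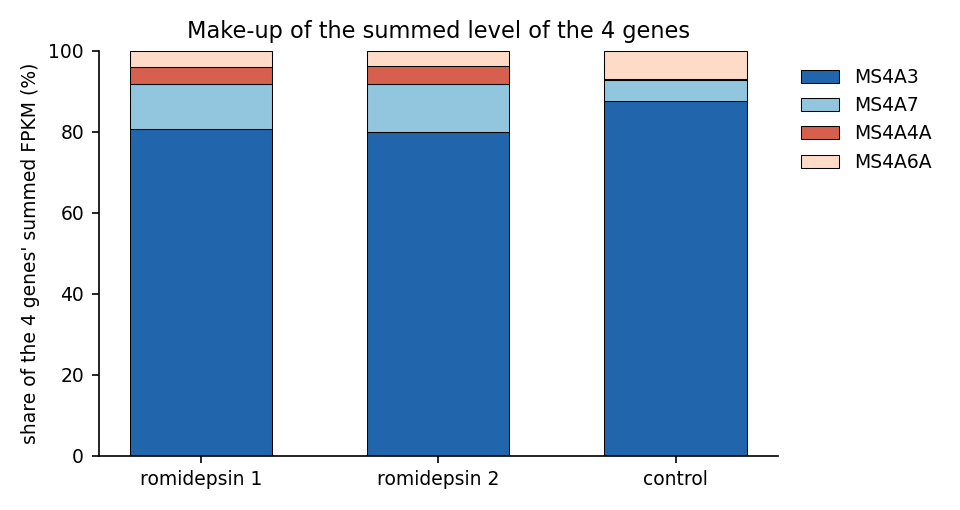
Share of each gene in the summed FPKM of the 4 genes (y axis, percent, from 0), one bar per library. MS4A3 fills most of each bar, and the MS4A4A segment is visible in the romidepsin bars at 4.32% and 4.56% but only a line at 0.321% in the control.

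The order of the levels differed between the groups. After romidepsin it was MS4A3, MS4A7, MS4A4A and MS4A6A from highest to lowest, and in the control MS4A3, MS4A6A, MS4A7 and MS4A4A. The level of MS4A6A was 0.904 and 0.825 times that of MS4A4A in the romidepsin libraries, against 21.8 times in the control. Levels of MS4A4A and MS4A6A after romidepsin did not overlap. In the first romidepsin library, however, the gap between these neighbours could lie within counting error, so their order is uncertain. MS4A7 was 2.83 and 3.12 times as abundant as MS4A6A after romidepsin, against 0.743 times in the control. MS4A3 was 7.29 and 6.79 times as abundant as MS4A7 after romidepsin, against 16.9 times in the control. Among all tested genes MS4A3 ranked 608th and 603rd by level after romidepsin, against 194th in the control, and MS4A6A ranked 8044th and 8146th, against 2818th. MS4A7 ranked 4596th and 4358th, against 3621st, and MS4A4A 7762nd and 7566th, against 10326th.

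The fragments behind these values were estimated from the steps between low FPKM values. They gave about 24900000 and 24000000 fragments for the romidepsin libraries, against 20900000 for the control. This is an approximation from a weak fit that also carries the authors' scaling. With the shortest and longest coding transcripts of the GENCODE basic set, MS4A4A rested on about 84 to 238 and 87 to 244 fragments after romidepsin, against 16 to 46 in the control. Counting alone then gives an error of 14.8% to 24.8% for the MS4A4A control value and 6.4% to 10.9% for its romidepsin values. MS4A6A rested on about 83 to 246 fragments in a romidepsin library, a counting error of 6.38% to 11%, against 412 to 1140 in the control. MS4A7 rested on about 230 to 1197 fragments per romidepsin library, against 280 to 1409 in the control. MS4A3 had at least 937 fragments in each library, and its romidepsin libraries differed with an SD of 0.102% of their mean, under the 1.5% to 3.27% that counting gives. The SD of the MS4A4A pair, 4.43% of the mean, and that of the MS4A6A pair, 1.97%, were likewise under their counting error, so the SD of a pair is not a full measure of precision here. These estimates cover counting error only.

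Transcripts of close relatives could share reads. Of the stretches of 50 bases in GENCODE transcripts, 0.684% of those of MS4A4A also occur in MS4A4E and 1.67% of those of MS4A6A also occur in MS4A6E. MS4A7 shared 2.51% of its stretches with MS4A14 and several unrelated genes, and MS4A3 shared none. MS4A4E had no row under its own name in the tables, so it was not analysed here, and no label says how the authors' counting treated shared reads.

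The rest of the family was scarcely detected. Beyond the 4 genes, 13 listed relatives had a row, TMEM176A and TMEM176B among them, and none reached 1 FPKM in any library, so none was tested. MS4A14 stood at 0.772 and 0.863 FPKM after romidepsin against 0.848 FPKM in the control. MS4A2 stood at 0.172 and 0.187 FPKM, against 0.278 FPKM in the control. MS4A6E was at 0.102 and 0 FPKM, against 0 FPKM. The other 10, MS4A1 (CD20) among them, were listed at 0 in all libraries, which in these tables need not mean absence.

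Genes on either side of the cluster went in both directions. Of 17 listed flanking genes 10 were tested, and 5 rose and 4 fell, against 34.7% called higher and 41.8% called lower of all tested genes (76.5% in all, limma with Benjamini-Hochberg adjustment). Of all called genes 45.3% were higher, but 65.2% with libraries scaled to the same sum. The flanking genes had a median log2 fold change of 0.12 against -0.05 over all tested genes. On the MS4A3 side, STX3, a syntaxin of vesicle fusion, rose to 14.2 and 14.3 FPKM, against 5.87 FPKM in the control (limma adjusted p = 2.17e-06). TCN1, which encodes a vitamin B12 carrier of neutrophil granules, rose to 5.70 and 5.66 FPKM, against 0.531 FPKM, and was tested only through its romidepsin values. The ubiquitin ligase gene DTX4 and MPEG1, which encodes the macrophage pore protein perforin-2, rose by log2 fold changes of 1.27 and 0.90, the mitochondrial ribosomal gene MRPL16 fell by 0.35, and PATL1, an mRNA decay factor gene, was at -0.04 (limma adjusted p = 0.503, but 0.0109 and higher with libraries scaled to the same sum). On the far side, CCDC86, a nucleolar protein gene and the first listed gene past the cluster, fell to 9.86 and 11.1 FPKM, against 30.1 FPKM in the control (limma adjusted p = 2.32e-06). The splicing factor gene PRPF19 and TMEM109 fell, at -0.39 and -0.31 (a call lost for TMEM109 with libraries scaled to the same sum, limma adjusted p = 0.144), and SLC15A3, a lysosomal transporter gene, rose by 0.27.

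**Figure D4:**
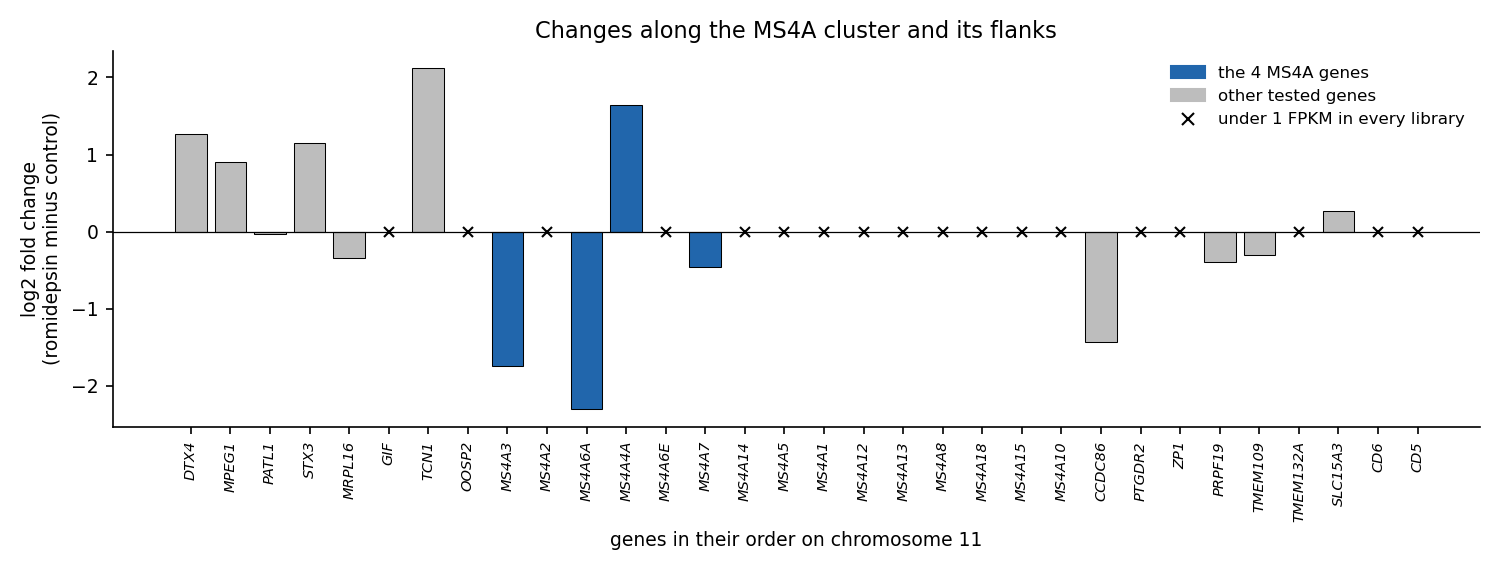
Log2 fold change (y axis, romidepsin minus control, on log2(FPKM + 1)) of the listed genes in their order along chromosome 11, not to distance and with unlisted genes left out. Bars are tested genes and crosses are genes under 1 FPKM in every library. MS4A4A (1.65) is the tall bar above the line within the cluster, next to MS4A6A (-2.31).

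Among genes whose products work with MS4A proteins, 6 of 7 tested rose and none fell, beside 34.7% higher and 41.8% lower of all tested genes. Their median log2 fold change was 0.75, beside -0.05 over all tested genes. Both the count and the median include 2 genes tested only through their romidepsin values, which could hardly be called lower. For MS4A3, CDKN3 was at 65.5 and 71.7 FPKM, against 62.5 FPKM in the control (limma adjusted p = 0.0662, but called higher in 3 of 7 alternatives), and its substrate kinase gene CDK2 was at 38.2 and 40.8 FPKM, against 33.8 FPKM (adjusted p = 0.00567, lost with no filter). CSF2RB, the common beta chain, was at 15.6 and 16.1 FPKM, against 14.3 FPKM in the control (limma adjusted p = 0.0450, lost with no filter and without the trend). MS4A3 was 3.36-fold lower beside these small differences. For MS4A4A, CLEC7A, which encodes Dectin-1, was at 2.08 and 3.18 FPKM, against 0.0244 FPKM, and passed the filter only after romidepsin. TREM2, a myeloid receptor whose soluble form MS4A4A is known to modulate, rose to 15.9 and 15.7 FPKM, against 9.02 FPKM (limma adjusted p = 1.18e-05). KIT, whose signalling in human mast cells involves MS4A4A, was at 1.40 and 1.85 FPKM, against 0.182 FPKM, and also passed the filter only after romidepsin. For MS4A2, FCER1G, the signalling chain it shares with other Fc receptors, rose to 157 and 174 FPKM, against 92 FPKM, while FCER1A stayed under 1 FPKM.

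MS4A3 stood beside other progenitor genes. Of 15 granulocyte-monocyte progenitor genes, all tested, 12 fell and 1, CEBPA, rose, beside 41.8% lower and 34.7% higher of all tested genes, with a median of -0.77 beside -0.05; several of these were known to fall in these data when the list was drawn up. The serine protease genes CTSG, ELANE and PRTN3 fell most, at -1.61, -1.31 and -1.24, beside -1.74 for MS4A3, while RNASE2 was at 0.01 (limma adjusted p = 0.894, but called higher with libraries scaled to the same sum or quantile normalized). For MS4A4A, MS4A6A and MS4A7, of 23 monocyte and macrophage genes 10 were tested, 5 rose and 3 fell (median 0.12, beside -0.05 over all tested genes), with CLEC10A and MARCO tested only through their romidepsin values. That count of called genes was close to the 76.5% over all tested genes. CCR2, a monocyte chemokine receptor gene, and MNDA, a nuclear antigen gene of myeloid cells, fell, at -2.0 and -0.84. CD14, the lipopolysaccharide coreceptor, rose by 1.0, and TYROBP, a signalling adaptor, was at 0.03 (limma adjusted p = 0.480, but called higher with libraries scaled to the same sum or quantile normalized). The list summed to 3307 and 3254 FPKM after romidepsin, against 5022 FPKM, mostly LYZ. CD163, C1QA, C1QC and FCGR3A were at 0 in the control and at most 0.214 FPKM after romidepsin, and MRC1 and C1QB were listed at 0 throughout.

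Of 12 tested myeloid regulators, 5 rose and 6 fell (median -0.35), shares near the 34.7% higher and 41.8% lower of all tested genes. CEBPD, a C/EBP factor, fell to 52.3 and 52.9 FPKM, against 206 FPKM, and MYC fell to 119 and 116 FPKM, against 362 FPKM, while GATA2 rose to 11 and 10.5 FPKM, against 4.39 FPKM (limma adjusted p at most 4.40e-06 for each). CEBPE, a C/EBP factor of granulocyte maturation, was at 33.4 and 32.5 FPKM, against 34.4 FPKM (limma adjusted p = 0.230, but 0.0102 and higher with libraries scaled to the same sum). SPI1, which encodes PU.1, whose core motif was searched above, was at 106 and 100.2 FPKM, against 208 FPKM. Any relation of its level to the motif matches was not tested.

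**Figure D5:**
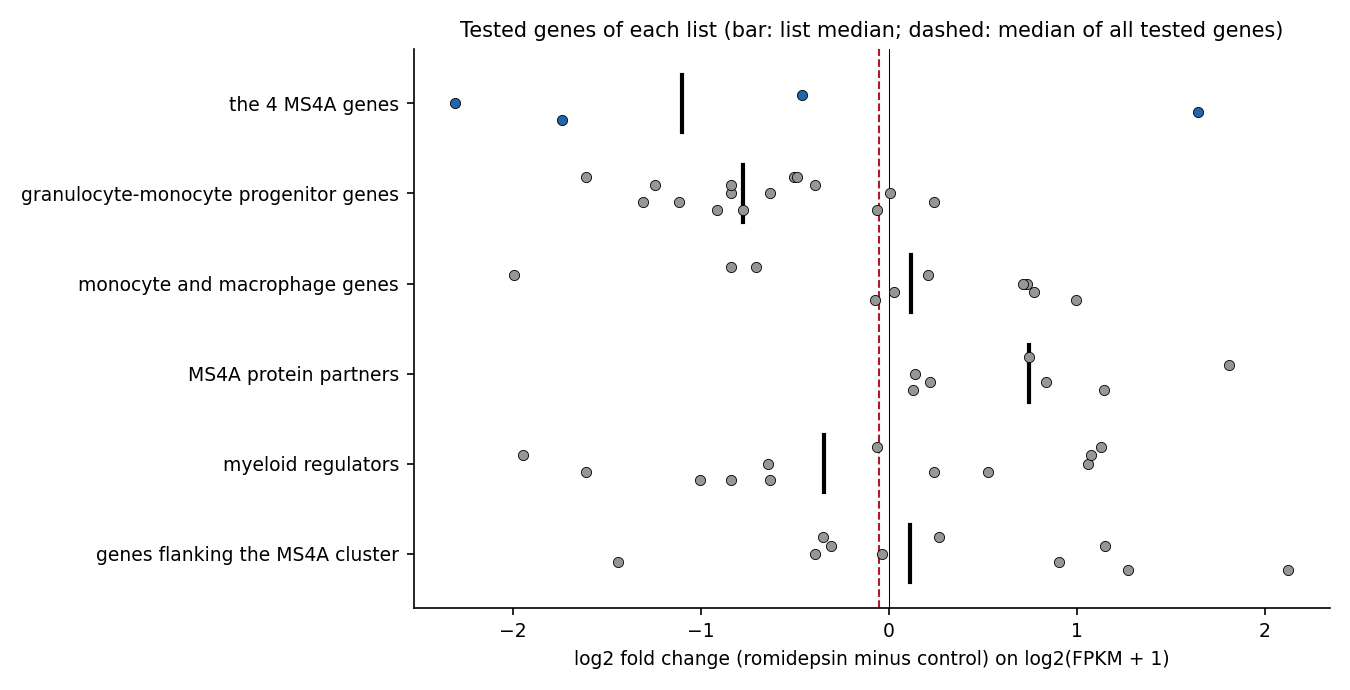
Log2 fold change (x axis, romidepsin minus control, on log2(FPKM + 1)) of the tested genes of each list; each point is a gene, the bar is the list's median and the dashed line is the median of all tested genes (-0.05). The 4 MS4A genes run from -2.31 to 1.65, and the progenitor genes lie mostly left of the line.

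Markers checked the cell type. All 6 myeloid blast markers reached 1 FPKM after romidepsin and 5 did in the control, where ANPEP was at 0.654 FPKM. Those markers summed to 3310 and 3259 FPKM after romidepsin, against 5321 FPKM in the control, mostly LYZ. Of the 6, 4 were called lower and 2 higher, ANPEP only through its romidepsin values. Over all tested genes 41.8% were called lower and 34.7% higher, and nothing is read from the marker counts. B cell markers summed to 12.8 and 14.0 FPKM after romidepsin, against 8.13 FPKM in the control. Of 8, 4 were tested and 3 were called higher, all 3 tested only through their romidepsin values. BLK and CR2 were listed at 0. Mast cell and basophil markers summed to 13.4 and 13.4 FPKM, against 4.80 FPKM, of which GATA2 held most. Only 2 of 9 were tested and both were called higher, KIT only through its romidepsin values. TPSB2, CPA3, CLC and CMA1 were listed at 0. T cell markers summed to at most 1.04 FPKM after romidepsin, against 0.216 FPKM, with none tested. The part of these marker changes in the values of the MS4A genes was not tested. Summed FPKM over all rows was 668773 and 657213 after romidepsin, against 790922 in the control.

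The genes closest to each member in level and change were found by Euclidean distance on log2(FPKM + 1) over the 3 libraries. For MS4A3 they were MYC at 0.28, PYCARD at 0.53 and ADRBK1 at 0.54. For MS4A4A they were SIPA1L2 at 0.08, SLCO4C1 at 0.09 and PKIG at 0.12. For MS4A6A they were PLD6 at 0.33, ALX1 at 0.34 and TFAP4 at 0.43. Each of them fell less, since MS4A6A had the lowest difference of all tested genes. For MS4A7 they were IRS2 at 0.05, NARS2 at 0.06 and IFNGR2 at 0.08. With 3 libraries such likeness describes these libraries only.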

How the data were processed

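The authors deposited FPKM values per gene for 3 RNA sequencing libraries, per the file headers. The submitters' processing notes name TopHat, Cufflinks, Cuffdiff and hg19; tool versions and the annotation were not given in the sources used here. Of 28837 rows per table, 1770 without a gene name (21.1% to 22.3% of summed FPKM) and 27 named by a number were left out, and rows of a symbol were summed. The romidepsin files shared no equal value above 0 in any row.

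Genes with at least 1 FPKM in at least 1 library (11708) were fitted on log2(FPKM + 1) with limma 3.58.1 in R 4.3.3 (lmFit, eBayes with trend), with Benjamini-Hochberg adjustment, calling genes under 0.05. With 1 residual and 6.06 prior degrees of freedom, the fit takes the single control to have the spread of the romidepsin pair. Genes below 1 FPKM in the control entered only if romidepsin libraries lifted them past the filter. The limma script was tested on simulated data. Depth came from single-transcript GENCODE v29 genes, with depth and a fragment length of 200 taken from the best match of low values to whole fragments. That match was weak: its score was 0.225 and 0.241 for the romidepsin libraries and 0.280 for the control, where 1 would be exact. Python 3.11.15, numpy 2.4.6, pandas 2.3.3 and matplotlib 3.10.9 served for the other steps; promoters are from RefSeq, where all 4 genes matched.

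The members and lists were chosen with earlier results of these data known. Named were the 4 genes, tested flanking and partner genes, the 3 largest changes and the smallest in each further list, and the 3 nearest genes to each member. MS4A14, MS4A2, MS4A6E, SPI1, CEBPA, LYZ, CLEC10A, MARCO, ANPEP, and the list genes given as at or near 0 were named after their values were seen. Alternatives covered the filter, pseudocount, scaling, row handling, trend and leaving out each romidepsin library.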

Additional observations from a re-analysis of the deposited data

How the results depend on the processing

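The direction of all 4 MS4A genes was kept under each alternative run. Scaling libraries to an equal sum moved the median of all tested genes by 0.21, called genes were 65.2% higher instead of 45.3%, 3061 genes were called lower instead of 4896, and 172 were at least 2-fold lower instead of 361. The log2 differences were then -1.50 for MS4A3, 1.81 for MS4A4A, -2.08 for MS4A6A and -0.23 for MS4A7, and relative to the median of all genes -1.66, 1.65, -2.25 and -0.40 (as deposited -1.69, 1.70, -2.26 and -0.41). With quantile normalization they were -1.45, 1.41, -2.26 and -0.37. A pseudocount of 0.1 gave -1.75, 2.10 and -2.47 for MS4A3, MS4A4A and MS4A6A, and 1308 genes at least 2-fold higher and 543 lower, since low genes then weigh more. With a mean of at least 5 FPKM, which tests fewer genes, 463 genes were at least 2-fold higher instead of 870, and 2 flanking genes and 3 monocyte and macrophage genes were called higher; with no filter 8 monocyte and macrophage genes were. Among progenitor genes 3 were called higher after equal-sum scaling and 2 after quantile normalization; the cause was not tested. Leaving out each romidepsin library gave -1.74 to -1.74 for MS4A3, 1.61 to 1.69 for MS4A4A, -2.33 to -2.29 for MS4A6A and -0.51 to -0.42 for MS4A7, as values with no test, with 951 to 957 genes at least 2-fold higher and 424 to 429 lower. For the 40 other named genes, 262 of 275 alternative values with a test kept the call, 4 lost it, 7 gained it, and 2 changed sign and became called higher, PATL1 (0.19) and CEBPE (0.17) after equal-sum scaling. Leaving out a romidepsin library, which gives no test, kept the sign of all 70 values of the called ones among them. No paired analysis was possible because the control is a single library whose label carries no replicate number. The single control, and the few fragments behind MS4A4A in it, limit the precision.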
